A study of Mus musculus with 16 samples.

Results

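Low oxygen was studied here in MCT4-KO cells of a mouse acute myeloid leukemia line, by comparing 4 libraries from cells kept at 2% oxygen with 4 from cells kept at 20% oxygen. These 8 libraries, of 16 in the series, were taken by their labels of genotype and oxygen alone, and all 13774 expressed genes entered the comparison. All cells carried MLL-AF9, a fusion of a histone methyltransferase with a transcription elongation factor that keeps blood progenitors dividing, and grew with serum, interleukin 3 and stem cell factor, so both oxygen levels shared these. Cas9 was induced with 4-hydroxytamoxifen (4-OHT) in every group. The other 8 libraries came from control cells at the same oxygen levels and serve here as the reference for the response of cells without that knockout. What guide, if any, the control cells carried is not given in the sources used here. Ambient air is close to the 20% condition. How long the cells were at 2% oxygen, where the guide cut, and whether the edited cells were a pool or 1 clone is not given in the sources used here. The replicates carry numbers, but no label says that they were grown apart, so the p-values rest on a spread between libraries that may be technical.

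MCT4, encoded by Slc16a3, is a carrier in the plasma membrane that moves lactate out of the cell together with a proton, and it is most used where glycolysis is fast. Cells sense oxygen through prolyl hydroxylases, which need oxygen to mark the alpha subunits of the hypoxia-inducible factors (HIF) for destruction. At low oxygen the alpha subunits build up, pair with Arnt and bind the short DNA words ACGTG or GCGTG, and the genes they switch on shift energy production from mitochondria toward glycolysis and lactate. Slc16a3 is itself a known HIF target, so in these cells low oxygen calls on a gene that had been edited.

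Low oxygen changed most of the expressed genes of MCT4-KO cells. Of 13774 tested genes 5189 rose (37.7%) and 5331 fell (38.7%), so 76.4% were called at an adjusted p under 0.05 in edgeR, and for 9975 genes (72.4%) the 4 libraries at 2% did not overlap the 4 at 20%. Every count of list members below has to be read against these shares. Large changes leaned upward, since 483 genes rose at least 4-fold and 178 fell at least 4-fold, and 194 against 46 passed 8-fold. The median change over all tested genes was -0.014 on the log2 scale. Levels are normalised read counts (CPM): a gene's counts per 1000000 of its library, after scaling by the trimmed mean of M-values (TMM). A change is a log2 fold change of 2% against 20% oxygen with its SE, both taken from edgeR, and a mean carries the SD over its 4 libraries.

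The first principal component of the 8 libraries held 89.0% of the variance and separated the oxygen levels, and the second held 2.32%. On the second the libraries at 20% oxygen ran from 14.2 (replicate 1) to -10.8 (replicate 3). Those at 2% lay closer together, from -2.70 to 3.15. Total estimated counts were 21565326 to 28871459 per library. Some library-wide shares moved with oxygen. The 10 most abundant genes took 5.31 ± 0.118% of the counts at 20% oxygen and 7.16 ± 0.096% at 2% (exact two-sided permutation p = 0.0286, the smallest that 70 splits allow, 0.0381 adjusted over 4 measures). Scaling by library size in place of TMM lowered the median of all genes by 0.18, to -0.19, and called 3797 genes higher and 6942 lower, so 35.4% of the called genes were higher in place of 49.3%. Shifts of list medians smaller than about 0.2 therefore depend on the scaling. Of 47 lists with at least 5 tested genes, 39 kept the sign of their median under both scalings and 8 did not, and these are marked where they appear. The part of RNA composition in the results was not tested.

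Defining markers of other blood and tissue cells were at or near 0. Of the T cell list 1 of 11 genes passed the count filter (Lck), Cd3e, Cd2, Trbc1, Trbc2 and Cd4 had no count in any of the 8 libraries, and the summed level, here and below as CPM of the library total before TMM scaling, was 31.0 to 34.5 CPM at 20% and 9.82 to 11.2 CPM at 2%. Of the B cell list 1 of 8 was tested (Ighm), and Blk had no count (summed 36.7 to 39.2 and 18.1 to 20.9 CPM). Of the NK cell list 1 of 8 was tested (Prf1), and Ncr1, Gzma, Gzmb and Eomes had no count (0.996 to 1.76 and 6.64 to 7.68 CPM). The erythroid and megakaryocyte list, with 7 of 13 tested and Hba-a1 and Slc4a1 without a count, summed to 2.78 to 4.39 CPM at 20% and 12.9 to 14.1 CPM at 2%. The mast cell and basophil list had 3 of 9 tested, 6 without a count, among them Tpsb2 and Fcer1a, and 10.2 to 14.1 against 43.3 to 50.7 CPM, almost all from Mcpt8 (TMM-scaled, 7.54 ± 1.25 to 46.3 ± 2.80 CPM). The stromal and endothelial list had 3 of 14 tested, 7 without a count, among them Col1a2, Cdh5 and Kdr, and 196 to 202 against 248 to 252 CPM, most of it Pecam1, which blood cells also express (TMM-scaled, 184 ± 2.31 to 262 ± 1.15 CPM). All 6 sums moved with oxygen without overlap between the groups, and their part in the results was not tested.

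The promoters of 4 genes that rose strongly and of 2 that fell are shown because their known factors read short DNA words. The windows are the 250 bases before a start site in RefSeq (GRCm38.p6), 5′ to 3′ on the gene's strand. For the first 4 the capitals mark ACGTG or GCGTG on either strand, so that CACGT and CACGC are the same words read from the other strand, and overlapping matches run together. In the windows of Slc7a11, the cystine carrier, and Chac1, a glutathione-degrading enzyme, both targets of the stress factor Atf4, the capitals mark TGATGNAA on either strand, the word of the C/EBP-ATF response element.
Slc16a3, chr11:120948817-120949066, plus strand: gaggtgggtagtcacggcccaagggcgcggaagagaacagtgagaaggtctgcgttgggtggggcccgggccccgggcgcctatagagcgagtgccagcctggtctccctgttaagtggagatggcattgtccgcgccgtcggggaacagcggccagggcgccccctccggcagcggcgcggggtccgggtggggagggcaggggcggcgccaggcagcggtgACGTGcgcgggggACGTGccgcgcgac
Ldha, chr7:46845554-46845803, plus strand: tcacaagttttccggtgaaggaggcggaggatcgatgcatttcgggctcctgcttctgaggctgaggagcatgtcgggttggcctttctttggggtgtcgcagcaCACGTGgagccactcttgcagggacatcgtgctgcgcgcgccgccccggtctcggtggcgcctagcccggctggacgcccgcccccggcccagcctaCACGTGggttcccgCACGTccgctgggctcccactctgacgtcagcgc
Bnip3, chr7:138909507-138909756, minus strand: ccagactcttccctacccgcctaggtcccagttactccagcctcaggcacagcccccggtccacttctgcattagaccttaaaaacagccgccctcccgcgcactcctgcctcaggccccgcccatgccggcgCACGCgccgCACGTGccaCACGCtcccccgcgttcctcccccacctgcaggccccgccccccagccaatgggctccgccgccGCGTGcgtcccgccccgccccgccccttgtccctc
Adm, chr7:110627407-110627656, plus strand: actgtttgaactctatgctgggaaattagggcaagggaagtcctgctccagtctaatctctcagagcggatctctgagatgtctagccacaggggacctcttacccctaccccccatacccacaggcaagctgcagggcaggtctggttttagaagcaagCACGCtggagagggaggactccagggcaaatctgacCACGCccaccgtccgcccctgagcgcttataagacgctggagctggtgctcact
Slc7a11, chr3:50443614-50443863, minus strand: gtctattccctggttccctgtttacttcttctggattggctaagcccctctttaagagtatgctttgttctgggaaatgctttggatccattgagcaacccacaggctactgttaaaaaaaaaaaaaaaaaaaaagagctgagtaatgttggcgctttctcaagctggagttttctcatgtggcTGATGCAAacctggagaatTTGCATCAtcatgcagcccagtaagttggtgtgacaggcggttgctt
Chac1, chr2:119350992-119351241, plus strand: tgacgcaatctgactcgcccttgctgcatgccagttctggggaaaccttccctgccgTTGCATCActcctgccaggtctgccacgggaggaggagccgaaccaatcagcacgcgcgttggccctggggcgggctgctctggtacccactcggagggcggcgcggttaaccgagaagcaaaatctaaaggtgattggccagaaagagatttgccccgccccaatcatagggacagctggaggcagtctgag

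The Slc16a3 window held 2 matches, which begin 27 and 14 bases before the start. The Ldha and Bnip3 windows held 5 each. The Ldha window has 2 copies of the palindrome CACGTG and the Bnip3 window 1, and a copy can count once on each strand. Ldha has a second start, whose window is not shown and held 1 match without the palindrome. Adm had 2 matches, 90 and 54 bases before the start. Slc7a11 held TGATGNAA at 66 and 47 bases before the start, and Chac1 at 193. By GENCODE vM21 the windows overlap the annotated span of their own gene, except that of Adm, which overlaps the gene model Gm28863, and at most 14 bases of any of the 6 windows are exonic.

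The hypoxia word was common in promoters of every class. Over windows of 250 bases before to 50 after the start it was found in 67.2% of 9920 tested genes with a window, in 65.5% of 310 that rose at least 4-fold and in 61.0% of 590 that fell at least 2-fold. The genes of glucose uptake and glycolysis held it in 21 of 24 (87.5%), the Atf4 targets, most of which fell, in 24 of 30 (80.0%), and the cholesterol genes, most of which rose, in 12 of 19 (63.2%). TGATGNAA was found in 2.88% of all 9920, in 7.63% of the 590 genes that fell at least 2-fold, and in 9 of 30 Atf4 targets (30.0%). A match is a description of these letters, and its absence from so short a window says nothing of a factor.

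Slc16a3 (ENSMUSG00000025161, chromosome 11, 120948480 to 120960868, plus strand) rose at low oxygen although it was the edited gene. Its level was 70.4, 72.4, 82.1 and 94.7 CPM at 20% oxygen and 370.3, 369, 358 and 363 CPM at 2%. The 4 libraries at 2% lay far above those at 20% and close to each other, while those at 20% spread from 70.4 to 94.7 CPM. As a check of the labels, control cells read 235, 199, 184 and 222 CPM at 20% oxygen and 789, 844, 810 and 804 CPM at 2%, so the MCT4-KO libraries lay below the control libraries at both oxygen levels without overlap. The mean went from 79.9 ± 11.1 to 365 ± 5.83 CPM, a log2 change of 2.19 ± 0.077 (edgeR adjusted p = 5.95e-16). The counting does not tell edited transcripts from intact ones, so these values do not measure working carrier. In control cells the gene rose by 1.95 ± 0.074, and the responses differed by 0.24 ± 0.10 (edgeR adjusted p = 0.104). That difference passed the test without the count filter (0.24, adjusted p = 0.0166), without replicate 3 of the controls at 20% (0.30, 0.0382) and without replicate 4 of MCT4-KO at 20% (0.33, 0.0132), so whether it passes depends on these choices.

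The other carriers did not follow it. Slc16a1, which encodes MCT1, a carrier of the same family that works in both directions, read 165, 161, 150.2 and 156 CPM at 20% oxygen and 118, 111, 112 and 117 CPM at 2%. All 4 libraries at 2% were below all at 20%, and the gene fell by 0.46 on the log2 scale (SE 0.039, edgeR adjusted p = 7.97e-10). Slc16a7, which encodes MCT2, fell further (-1.17 ± 0.14), from a low level (3.50 ± 0.375 to 1.55 ± 0.235 CPM). Bsg, which encodes basigin, the chaperone that brings MCT1 and MCT4 to the membrane, read 232, 241, 259 and 258 CPM at 20% oxygen and 1181, 1152, 1153 and 1172 CPM at 2%. It rose by 2.23 ± 0.046, about as much as Slc16a3, and Emb, which encodes the related chaperone embigin, rose by 0.74 ± 0.032 (376, 364, 363 and 362 CPM at 20% oxygen and 625, 592, 596 and 629 CPM at 2%). Per kilobase of exon the order of the carriers turned over in MCT4-KO cells. Slc16a1 stood at 35.7 RPKM (CPM divided by the exon length in kilobases) and Slc16a3 at 15.0 RPKM at 20% oxygen, and at 25.9 and 68.6 RPKM at 2%. In control cells the mean CPM of Slc16a3 was above that of Slc16a1 at both levels. They were 210 ± 23.0 and 169 ± 7.23 CPM at 20% oxygen, and 812 ± 23.4 and 84.1 ± 3.21 CPM at 2%.

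Of 22 tested genes of lactate and proton handling 9 rose and 11 fell (median -0.31; -0.24 in control cells). Those that rose included Car9 (5.77 ± 0.417 to 17.6 ± 0.256 CPM, 1.61) and Car2 (0.941 ± 0.0223 to 4.54 ± 0.734 CPM, 2.27), carbonic anhydrases that interconvert carbon dioxide and bicarbonate. Atp6v1a, a subunit of the proton pump of lysosomes, rose by 0.82 ± 0.035. The bicarbonate exchanger Slc4a2 fell (-0.71), as did the sodium-proton exchangers Slc9a8 (-1.02) and Slc9a9 (-1.21).

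Genes of oxygen sensing moved in both directions. Hif1a RNA lay at the edge of the test: its libraries read 326, 307, 292 and 295 CPM at 20% oxygen and 318, 322, 337 and 324 CPM at 2%, the groups overlapped, and the change was 0.09 ± 0.045 (edgeR adjusted p = 0.0606). It was called with DESeq2's size factors (edgeR adjusted p = 0.0465), no count filter (0.0465), a stricter filter (0.0399), the DESeq2 test (0.0399), a fit of the 8 MCT4-KO libraries alone (0.0129) and without replicate 1 of MCT4-KO at 20% (0.0162), with changes of 0.10 to 0.13, so the call depends on these choices. Epas1, which encodes HIF2 alpha, rose 2.49 from a low level (0.828 ± 0.164 to 4.71 ± 0.357 CPM). Egln3, the prolyl hydroxylase that HIF induces most, went from 120.3, 118, 127 and 141 CPM to 1494, 1378, 1464 and 1505 CPM. No library of 1 oxygen level came near those of the other, and the change was 3.53 ± 0.077 (edgeR adjusted p = 3.26e-19). Egln1, the main hydroxylase at normal oxygen, rose by 1.30 ± 0.033, and Egln2, which HIF does not induce, fell by 0.47. Vhl, which tags the hydroxylated alpha subunits, fell (-0.39 ± 0.048), as did Siah1a (-0.92), a ligase that limits the hydroxylases, and Cited2, which competes with HIF for its coactivator, rose (1.04 ± 0.043). In all, 6 of 14 tested genes of oxygen sensing rose and 5 fell (median 0.22). The called share, 78.6%, was near the 76.4% over all genes. Under library-size scaling 6 rose and 6 fell (median 0.047).

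**Figure D1:**
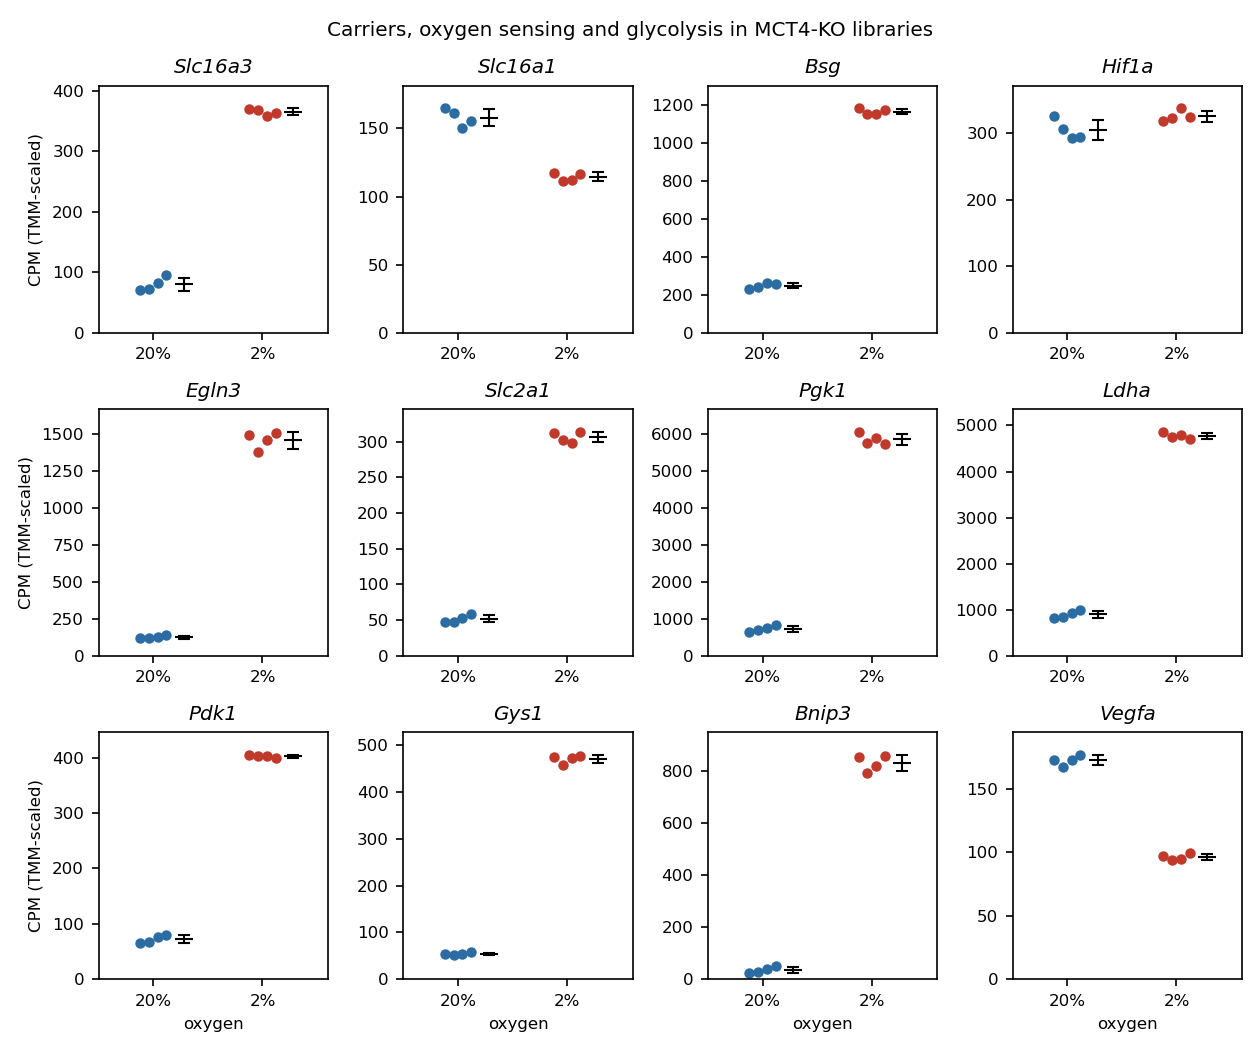
TMM-scaled CPM (vertical axes, linear from 0) of 12 genes in the 4 MCT4-KO libraries at 20% oxygen (blue points) and the 4 at 2% (red points), with the mean and 1 SD beside each group (n = 4). Slc16a3, Bsg and the glycolytic genes rose without overlap, Slc16a1 and Vegfa fell, and the libraries of Hif1a overlapped.

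Glucose uptake and glycolysis rose almost as a whole. Of 25 tested genes 22 rose, 2 fell and 1 was not called, 19 rose at least 2-fold, and the median change was 1.96 (1.92 in control cells, -0.014 over all genes). Its summed level, as CPM of the library total, was 10607 to 11911 in the libraries at 20% oxygen and 46380.3 to 47684 in those at 2%. Slc2a1, which encodes the glucose carrier GLUT1, read 48.0, 47.9, 53.7 and 58.5 CPM at 20% oxygen and 313, 303, 298 and 313 CPM at 2%, a rise of 2.56 ± 0.077. Slc2a3, which encodes GLUT3, rose alike (2.62 ± 0.052). For both carriers the libraries of the 2 oxygen levels were far apart. Pgk1, the first ATP-yielding enzyme of the pathway, read 654, 692, 759.6 and 840.3 CPM at 20% oxygen and 6066, 5763, 5891 and 5742 CPM at 2%, a rise of 2.99 ± 0.075.

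Among the other enzymes Tpi1 rose 2.87, Pfkl 2.48, Aldoa 2.44, Eno1 2.30, Pkm 2.26, Gpi1 2.01 and Gapdh 1.96. Isoforms of 1 step moved apart. Of the hexokinases, which trap glucose in the cell, Hk1 and Hk2 rose (1.22 ± 0.040 and 1.10 ± 0.059) while Hk3 stood at 0.09 ± 0.034, or -0.088 under library-size scaling, and was not called without replicate 2 or 3 at 20% or replicate 1 at 2% (0.08 each). Aldoc rose 4.42 but reached only 11.7 RPKM at 2% oxygen, against 2095 RPKM for Aldoa. Eno3 did not pass the test (-0.05 ± 0.17, edgeR adjusted p = 0.794). The 2 members that fell were Pfkfb2 (-0.86 ± 0.12), a bifunctional enzyme that sets the level of a phosphofructokinase activator, and the carrier Slc2a6 (-0.19 ± 0.078), which did not pass the test without replicate 3 (-0.15) or 4 (-0.19) of MCT4-KO at 20% or replicate 1 (-0.18) or 3 (-0.14) at 2%.

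Ldha, which encodes the muscle-type lactate dehydrogenase subunit, turned from 821, 850.5, 934 and 1001 CPM at 20% oxygen to 4866, 4746, 4789 and 4707 CPM at 2%. The means were 902 ± 81.6 to 4777 ± 68.0 CPM, and the change was 2.41 ± 0.056 (edgeR adjusted p = 9.09e-19), against 2.22 in control cells. Ldha and the edited exporter Slc16a3 rose by similar amounts. Pdk1, a kinase that shuts pyruvate dehydrogenase, read 64.9, 67.7, 75.7 and 80.3 CPM at 20% oxygen and 404, 404, 403 and 399 CPM at 2% and rose by 2.48 ± 0.067. Pdk3 rose as well (1.13 ± 0.032), Pcx, which carboxylates pyruvate, rose by 1.52 ± 0.076, and of the pyruvate dehydrogenase complex Dld and Pdhx fell (-0.63 and -0.72). Of the 14 tested genes of pyruvate fate 6 rose and 5 fell, and their median of 0.09 turned to -0.085 under library-size scaling.

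Glycogen genes rose on both the building and the breaking side. Of 20 tested 15 rose and 3 fell (median 0.63; 0.65 in control cells). Gys1, the glycogen synthase outside the liver, read 54.4, 52.4, 53.7 and 56.9 CPM at 20% oxygen and 476, 459, 474 and 477 CPM at 2%. Its groups were far apart with little spread, a change of 3.12 ± 0.048, although an exon of Gys1 overlaps one of Ruvbl2. Pgm1, which links glucose phosphates, rose by 2.52 ± 0.050, the branching enzyme Gbe1 by 1.70 ± 0.033 and the phosphorylase Pygl by 1.64 ± 0.031.

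Several secreted factors rose strongly. Adm, which encodes the vessel-relaxing peptide adrenomedullin, read 0, 0, 0.0735 and 0.0373 CPM at 20% oxygen and 41.2, 33.4, 35.7 and 43.1 CPM at 2%. It had 3 counts in the 4 libraries at 20% and 3673 in those at 2%, a ratio of 1325 with an exact 95% interval of 453 to 6427 that covers counting error only. Stc1, which encodes the hormone stanniocalcin, went from 30 to 8113 counts, a ratio of 293 (205 to 434). Apln, which encodes the peptide apelin, went from 34 to 1833 counts, a ratio of 58.3 (41.6 to 84.5). Mif, a cytokine, rose from a high level (212 ± 14.8 to 1049 ± 15.7 CPM, 2.31 ± 0.041).

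Vegfa moved the other way. The gene, which encodes the main vessel growth factor and is a textbook HIF target, read 173, 167, 173 and 177 CPM at 20% oxygen and 97.0, 93.6, 94.4 and 99.4 CPM at 2%. All libraries at 2% lay below those at 20%, a change of -0.84 ± 0.043 (edgeR adjusted p = 3.28e-13), and control cells showed -0.93 ± 0.043. Pgf, which encodes a factor of the same family, fell too (-0.91 ± 0.13), whereas Vegfb rose (0.97 ± 0.043). Of 11 tested secreted factors, from a list of 21, 8 rose and 3 fell (median 1.97, 2.22 in control cells).

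Of 29 tested genes listed as other hypoxia targets 22 rose and 2 fell (median 1.20; 1.39 in control cells). The list was chosen with earlier results of these data known, so this count is not independent support. Bhlhe41, a circadian repressor, had no count in any library at 20% and 912 in those at 2%, at least 329-fold higher against a floor of 3 counts over the group. Its relative Bhlhe40 rose by 4.19 ± 0.091 (11.4 ± 1.40 to 209 ± 5.36 CPM). Selenbp1, a selenium-binding protein, combined a large change with a high level: its libraries read 34.0, 35.9, 40.0 and 42.9 CPM at 20% oxygen and 1216, 1133, 1144 and 1208 CPM at 2%, a rise of 4.94 ± 0.080. Ndrg1, Ak4, Ddit4 and Anxa2 rose by 2.09, 3.57, 1.82 and 1.44. The 2 that fell were Mafk (-0.33) and Kctd11 (-0.26), the latter not called by DESeq2 (adjusted p = 0.0502) or without replicate 1 of MCT4-KO at 20% (-0.20).

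Others among the 10 largest rises without overlap at a mean log2 CPM of 3 or more were Smtnl2 (8 to 2708 counts, ratio 366, interval 186 to 849), Basp1 (46 to 6227, ratio 146, 110 to 200.3), Mgarp (5.98 ± 0.19), BC100530 (32 to 1752, ratio 59.2, 41.8 to 86.9) and P4ha2 (5.40 ± 0.18). All 5 had means under 1 CPM at 20% oxygen, with Mgarp going from 0.808 ± 0.488 to 52.3 ± 3.06 CPM and P4ha2 from 0.516 ± 0.193 to 22.1 ± 1.74 CPM. Mgarp encodes a mitochondrial protein of the hypoxia response, and P4ha2 a collagen prolyl hydroxylase. Of 13 tested collagen hydroxylases and matrix genes 12 rose (11 under library-size scaling), with P4ha1, Plod2, Plod1 and P4hb at 1.35, 3.76, 1.19 and 1.60. Col4a1, whose exons overlap Col4a2, fell (-2.52 ± 0.085). The rise of Col4a2 was not called under library-size scaling (0.28), by DESeq2 (0.47), without the count filter (0.46) or without some single libraries.

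**Figure D2:**
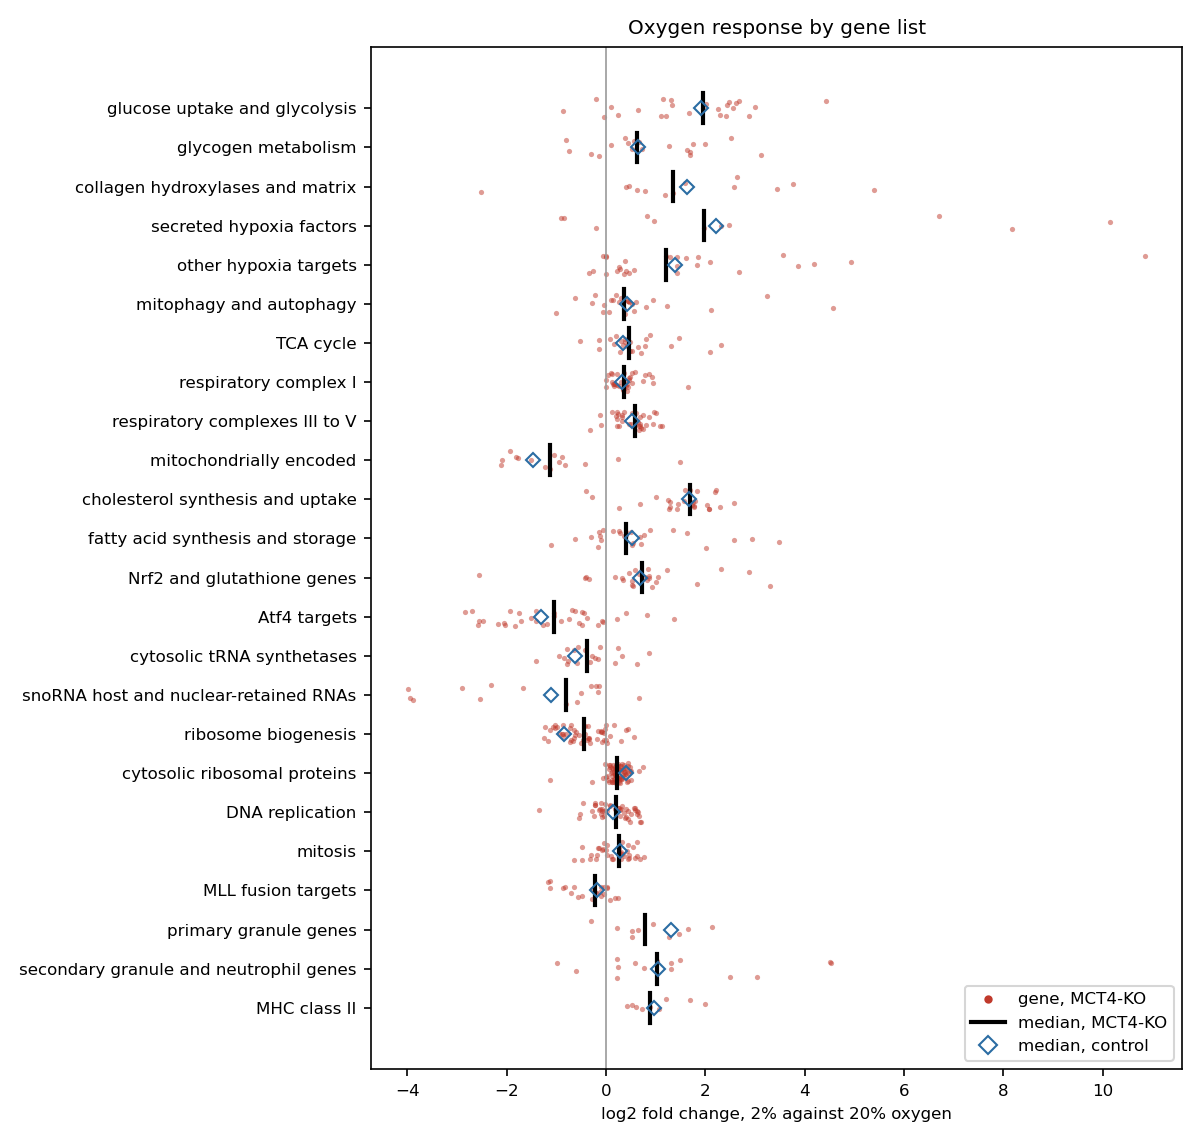
Log2 fold change at 2% against 20% oxygen (horizontal axis) of each tested gene of 24 lists in MCT4-KO cells (red points), with the list median in MCT4-KO (black bar) and in control cells (blue diamond). Glycolysis, secreted hypoxia factors and cholesterol genes lie to the right with medians of 1.96, 1.97 and 1.69, and mitochondrially encoded genes and Atf4 targets to the left with -1.14 and -1.05.

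Mitophagy, the removal of mitochondria, is driven at low oxygen by Bnip3 and Bnip3l. Bnip3 read 22.3, 27.1, 39.6 and 49.4 CPM at 20% oxygen and 851, 790.4, 818 and 857 CPM at 2%. The libraries at 20% spread widely and climbed from replicate 1 to 4, as did those of Slc16a3, Ldha and Pdk1. The source of that climb was not tested. The libraries at 2% were all far above those at 20%, and the change was 4.58 ± 0.20. Bnip3l rose by 2.11 ± 0.043 and Fam162a, another HIF target of mitochondria, by 3.24 ± 0.091. Of the autophagy receptors Calcoco1 rose (1.23 ± 0.044) and Sqstm1 fell (-1.01 ± 0.044). In all 20 of 27 rose and 4 fell (median 0.36; 0.42 in control cells).

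Most listed nuclear genes of respiration rose, while most genes on mitochondrial DNA fell. Of 36 nuclear genes of complex I 31 rose and 0 fell by edgeR (0 at an unadjusted p under 0.05 and 0 by DESeq2), and of 36 of complexes III to V 33 rose and 3 fell, with medians of 0.36 and 0.58. Under library-size scaling the counts were 22 against 3 and 26 against 3, with medians of 0.19 and 0.40. Ndufv3, a small complex I subunit, rose most of that list: 59.0, 64.1, 66.5 and 62.4 CPM at 20% oxygen and 200.5, 192, 199 and 201 CPM at 2%, a change of 1.65 ± 0.037. Cox7b and Cox6b1, subunits of cytochrome oxidase, rose by 1.09 and 0.96. Cox6a2, the muscle form of another such subunit, is not in the list and fell (-2.75 ± 0.080), though its exons overlap Itgad. The 3 listed genes that fell were Uqcrq (-0.32), Cycs (-0.12) and Cyc1 (-0.11). The last 2 lost the call without replicate 4 at 20% oxygen (-0.11 and -0.09). Cycs also lost it without replicate 2 at 20% (-0.10) or replicate 2 or 3 at 2% (-0.10 each), and Cyc1 without replicate 4 at 2% (-0.09).

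Genes on mitochondrial DNA fell in 13 of 15 cases, by 0.42 for mt-Co1 to 2.13 for mt-Atp6 on the log2 scale (median -1.14; -1.48 in control cells). These were the 13 protein genes, and mt-Co1 lost its call without replicate 3 at 20% or replicate 4 at 2% (-0.35 each). The share of counts from mitochondrial DNA went from 0.720 ± 0.067% (0.645 to 0.801%) at 20% oxygen to 0.379 ± 0.036% (0.330 to 0.413%) at 2% (exact two-sided permutation p = 0.0286). mt-Cytb, the cytochrome b of complex III, read 804, 879, 1036 and 940.4 CPM at 20% oxygen and 208, 234, 230.3 and 186 CPM at 2%, a fall without overlap (-2.09 ± 0.15). The ribosomal RNAs did not fall. mt-Rnr1, the small one, read 114, 122, 134 and 125 CPM at 20% oxygen and 351, 369, 339 and 329 CPM at 2% (1.49 ± 0.076), and mt-Rnr2, the large one, changed by 0.25 ± 0.093, a rise that lost its call under library-size scaling (0.07) and without replicate 1 at 20% (0.19) or at 2% (0.22). Libraries were selected for poly(A), and ribosomal RNA of mitochondria carries short tails, so how much of each was captured was not tested.

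**Figure D3:**
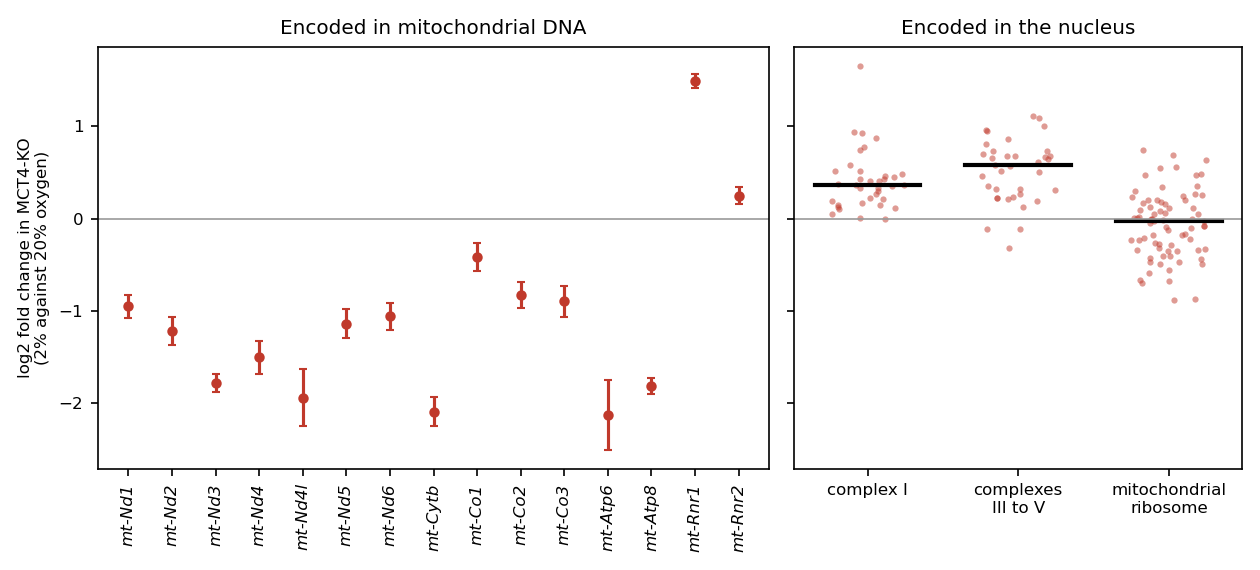
Log2 fold change at 2% against 20% oxygen in MCT4-KO cells (vertical axis) of the 15 genes of mitochondrial DNA (left, with 1 SE, n = 4 libraries per group) and of the listed nuclear genes of complex I, complexes III to V and the mitochondrial ribosome (right, 1 point per gene, bar at the median). The 13 protein genes of mitochondrial DNA lie below 0 and the medians of the respiratory complexes above it, at 0.36 and 0.58.

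Mitochondrial ribosomal proteins were split, with 23 of 76 higher and 32 lower (median -0.03), or 11 and 46 under library-size scaling. Mrps18b (-0.88), Mrps6 (-0.87) and Mrpl9 (-0.67) were among those that fell. Enzymes of the TCA cycle and those around it rose in 20 of 24 cases and fell in 3 (median 0.45; 18 and 4 under library-size scaling). The 4 that rose at least 2-fold included Me1 (2.32 ± 0.085), Idh1 (1.47 ± 0.035) and Acly (1.31 ± 0.036), which supply NADPH or acetyl-CoA. Cs, the entry enzyme of the cycle, stood at 0.15 ± 0.033 (-0.027 under library-size scaling), and Pck2, which draws carbon off the cycle, fell (-0.53 ± 0.041).

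Most genes of cholesterol synthesis and uptake rose. Of 27 genes 25 rose and 2 fell, 23 rose at least 2-fold, and the median was 1.69 (1.67 in control cells). The pathway is switched on together by the factor SREBP2, whose gene Srebf2 rose by 1.28 ± 0.031. Lss, which closes the sterol rings, read 25.9, 23.1, 23.6 and 23.0 CPM at 20% oxygen and 145, 142, 139 and 139 CPM at 2%. No library at 20% came near those at 2%, a change of 2.57 ± 0.046. Acat2, Fdft1 and Idi1, earlier enzymes of the path, rose by 2.22, 2.19 and 1.84. Soat2, which stores cholesterol as esters, fell from 51.5 ± 4.59 to 6.87 ± 0.630 CPM (-2.91 ± 0.076).

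Fatty acid genes rose in 19 of 27 cases and fell in 6 (median 0.39; 16 and 8 under library-size scaling). Both genes that rose most encode desaturases, which place double bonds with the help of oxygen. Scd1 read 19.8, 19.6, 21.8 and 20.9 CPM at 20% oxygen and 229, 235, 224 and 226 CPM at 2%, far apart with little spread, a change of 3.47 ± 0.054. Fads2 rose by 2.94 ± 0.063 and the desaturase Scd2 by 1.63 ± 0.037. Lpin1, which makes diacylglycerol, rose by 2.58 ± 0.052, and Plin3, which coats lipid droplets, by 1.35 ± 0.030. Fasn rose less (0.39 ± 0.081), and Dgat2, which completes triglycerides, fell (-1.11 ± 0.054). Fatty acid oxidation was mixed, with 12 of 23 higher and 6 lower, or 9 and 9 under library-size scaling, where its median of 0.15 turned to -0.029.

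Targets of Atf4, the factor that cells switch on when amino acids are short or proteins misfold, fell. Of 35 tested genes 29 fell and 4 rose, 19 fell at least 2-fold, and the median was -1.05 (-1.32 in control cells). Atf4 itself fell from 793 ± 5.77 to 327 ± 13.6 CPM (-1.28 ± 0.051). Trib3, a pseudokinase that dampens the response, read 466, 449.6, 461 and 462 CPM at 20% oxygen and 73.4, 62.8, 69.6 and 75.9 CPM at 2%, a fall without overlap (-2.71 ± 0.085). Atf5 fell further, from 442 ± 17.9 to 61.5 ± 3.44 CPM (-2.85 ± 0.061), though its exons overlap Nup62 and Il4i1. Slc7a11, which brings in cystine for glutathione, read 89.8, 86.3, 81.9 and 80.8 CPM at 20% oxygen and 15.5, 14.1, 14.1 and 13.6 CPM at 2% (-2.56 ± 0.070). The glycine carrier Slc6a9, Nupr1 and Chac1 fell by 2.47, 2.58 and 2.17.

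Not all Atf4 targets fell so far. Enzymes that make serine and asparagine fell less, with Psat1 at -0.16 ± 0.030, Phgdh at -0.45 ± 0.056 and Asns at -0.49 ± 0.040. The 4 that rose were Cbs (1.36), Stc2 (0.83), Vldlr (0.41) and Eif4ebp1 (0.21), the last not called under library-size scaling (0.04). Cytosolic tRNA synthetases, which load amino acids onto tRNA, fell in 15 of 20 cases and rose in 5 (median -0.38; -0.63 in control cells). Wars, for tryptophan, fell most (-1.41 ± 0.051), then Aars (-0.94), and Dars rose (0.87 ± 0.030).

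Hosts of small nucleolar RNAs (snoRNAs) held several large falls. These genes carry snoRNAs, guides of ribosomal RNA modification, in their introns. Snhg1 read 247, 262, 256 and 262 CPM at 20% oxygen and 16.3, 16.2, 16.5 and 17.7 CPM at 2%, far apart, a change of -3.94 ± 0.049. Snhg12, Snhg5 and Snhg15 fell by 3.99, 3.89 and 2.90, and Zfas1 by 2.32, whereas Snhg6, Snhg8 and Snhg3 fell by 0.14 to 0.31. Of 15 tested hosts and nuclear RNAs 13 fell and 1 rose (Neat1, 0.66 ± 0.10), with a median of -0.81 (-1.11 in control cells). Exons of some hosts overlap other annotated genes, and how strand was treated in the counting was not given, so such genes are uncertain.

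Mamdc2, a secreted matrix protein, read 351, 315, 293 and 318 CPM at 20% oxygen and 20.4, 17.9, 19.1 and 20.0 CPM at 2%. Its groups were far apart, and it had the largest fall of the genes whose mean log2 CPM over all libraries was 3 or more (-4.05 ± 0.067). The other large falls were Cp, the copper oxidase ceruloplasmin (16.9 ± 3.01 to 1.87 ± 0.415 CPM, -3.17 ± 0.18), Mob3c (-2.90) and Cox6a2, the muscle form of a cytochrome oxidase subunit (40.3 ± 1.74 to 5.98 ± 0.576 CPM, -2.75 ± 0.080). Exons of Cp overlap Hps3.

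Ribosome assembly and ribosomal proteins parted. Of 52 ribosome biogenesis genes 37 fell and 5 rose (median -0.44), while of 79 cytosolic ribosomal protein genes 65 rose and 2 fell (median 0.23). The second count rests on small changes: under library-size scaling 30 rose and 9 fell (median 0.048). Nop58, a core protein of snoRNA particles, read 329, 344, 311 and 332 CPM at 20% oxygen and 139, 134, 138 and 141 CPM at 2%. All 4 libraries at 2% were far below those at 20%, a change of -1.25 ± 0.043. Nop56, Ddx21, Wdr43 and Polr1b, a subunit of the polymerase that makes ribosomal RNA, fell by 0.99, 1.07, 0.87 and 0.87.

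Among the ribosomal proteins Rpl6 and Rpl29 rose by 0.47 and 0.44, while Rpl12 (-1.13 ± 0.063) and Rps12 (-0.28 ± 0.062) fell. Their share of all counts was 9.08 ± 0.352% at 20% oxygen and 9.41 ± 0.087% at 2% (exact two-sided permutation p = 0.0857), with overlap between the groups. These genes have many near-identical pseudogenes, and Ldha, Eno1 and Hsp90aa1 have such copies too, so reads may have been divided wrongly among them.

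Myc, the factor that drives ribosome production, fell slightly. Its libraries read 438, 408, 386 and 404 CPM at 20% oxygen and 368, 360.0, 366 and 371 CPM at 2%, without overlap though the groups lay near each other, a change of -0.16 ± 0.045 (edgeR adjusted p = 0.00365). Its antagonists rose, Mxd1 by 1.68 ± 0.062 and Mxi1, a HIF target, by 1.20 ± 0.040, while its partner Max fell (-0.28 ± 0.032). Arrdc3, an arrestin-like protein, rose (3.35 ± 0.098), and its relative Txnip, which slows glucose uptake, did not pass the test (-0.05 ± 0.038, edgeR adjusted p = 0.281; -0.22 and called under library-size scaling). Of 16 tested genes of the Myc network 8 rose and 5 fell, with a median of 0.11 that turned to -0.069 under library-size scaling.

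Genes of nucleotide synthesis moved little. Of 25 tested 12 rose, 5 fell and 8 were not called (median 0.03, or -0.15 with 7 higher and 13 lower under library-size scaling). Gart, which catalyzes 3 steps of purine synthesis, read 230.4, 219.5, 215 and 219.6 CPM at 20% oxygen and 220.2, 214, 221 and 216 CPM at 2%, with overlap (-0.02 ± 0.037, edgeR adjusted p = 0.629; -0.20 and called under library-size scaling). Impdh1, which opens the way to guanine nucleotides, rose (1.29 ± 0.051), and Ppat, Cad and Ctps, the first or rate-setting enzymes of their paths, fell (-0.41, -0.41 and -0.47). DNA replication genes rose in 26 of 46 cases and fell in 12 (median 0.21), and mitotic genes rose in 23 of 38 and fell in 9 (median 0.26). Under library-size scaling these counts were 20 against 22 and 17 against 15. Mcm6, a helicase subunit, rose by 0.71 ± 0.032, and Orc2, which marks origins, fell (-1.36 ± 0.039).

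Of 16 tested regulators of entry into the cell cycle 9 rose and 4 fell (median 0.27; 8 and 6 under library-size scaling). Cdkn1a, which encodes the kinase inhibitor p21, rose from 126 ± 5.19 to 320.3 ± 10.5 CPM (1.35 ± 0.046) and Cdkn2b, which encodes the inhibitor p15, by 2.10 ± 0.24, and Ccnd3, a cyclin that acts at the start of the cycle, rose too (1.19 ± 0.042). Of 22 tested p53 targets, Cdkn1a among them, 8 rose and 11 fell (median -0.05; 5 and 12 under library-size scaling), with Rrm2b at -2.12 ± 0.075 and the death gene Bbc3 at -1.24 ± 0.058. Of 23 survival and death genes 8 rose and 11 fell. Their median of 0.03 turned to -0.15 under library-size scaling.

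**Figure D4:**
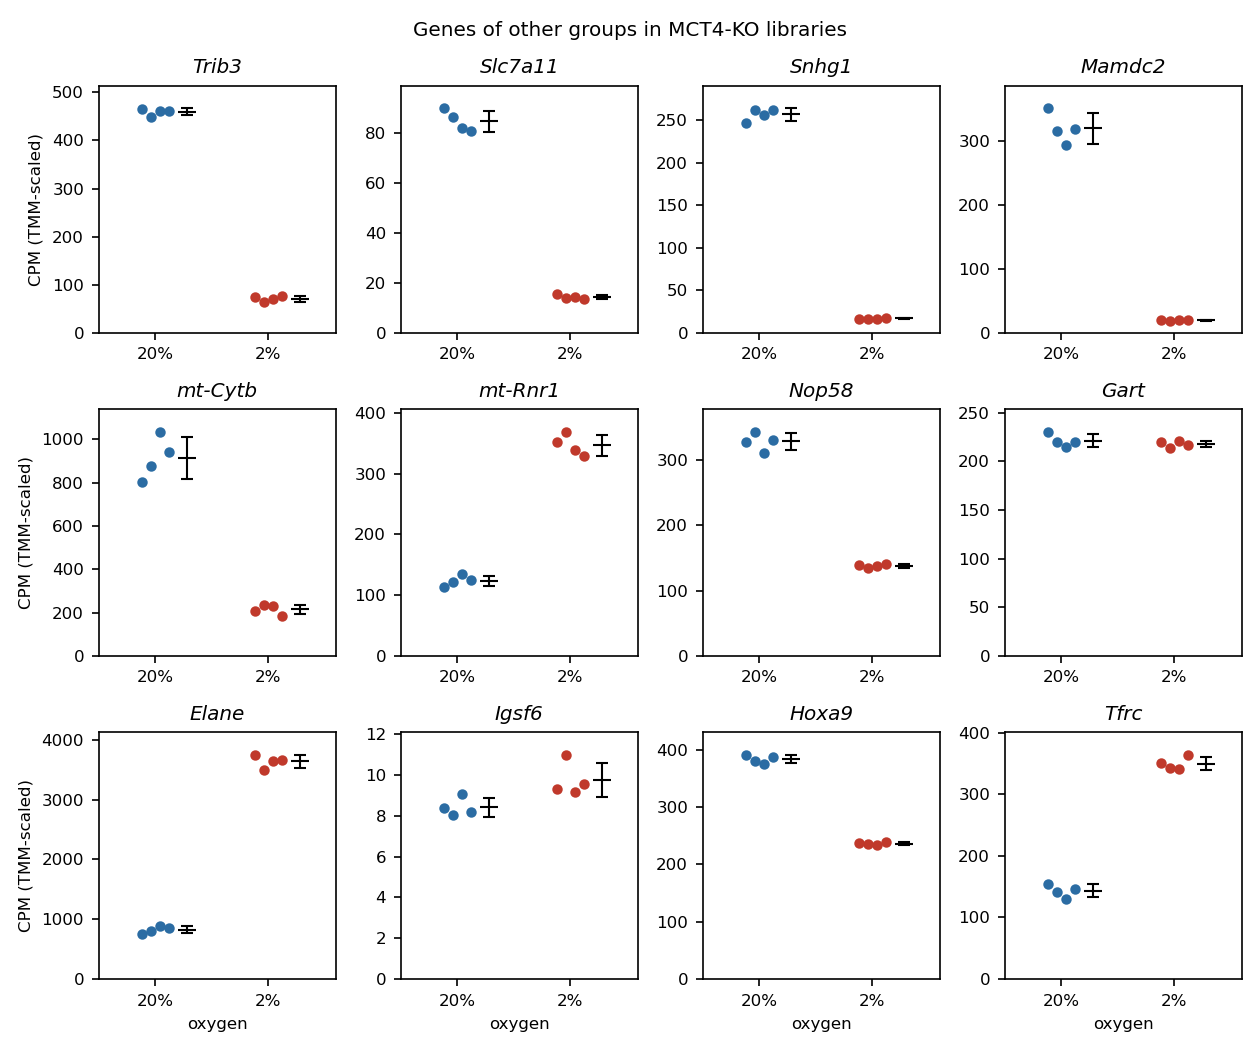
TMM-scaled CPM (vertical axes, linear from 0) of 12 genes of other groups in the 4 MCT4-KO libraries at 20% oxygen (blue points) and the 4 at 2% (red points), with the mean and 1 SD (n = 4). Trib3, Slc7a11, Snhg1, Mamdc2, mt-Cytb, Nop58 and Hoxa9 fell and mt-Rnr1, Elane and Tfrc rose without overlap, and the libraries of Gart overlapped.

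Antioxidant genes rose in 22 of 26 cases and fell in 4 (median 0.73; 0.69 in control cells). Hmox1, which breaks down heme, read 8.17, 7.76, 7.90 and 9.70 CPM at 20% oxygen and 87.2, 83.5, 79.5 and 81.6 CPM at 2%, far apart, a rise of 3.30 ± 0.069. Nqo1, Pgd and Gsr rose by 2.87, 1.01 and 0.83. The 4 that fell were Slc7a11, given above, Txnrd1 (-0.34), Gclc (-0.41) and Nfe2l2 (-0.42), the gene of the factor Nrf2 that drives the list. Tfrc, the receptor for iron-loaded transferrin, read 155, 142, 130.1 and 147 CPM at 20% oxygen and 351, 342, 341 and 364 CPM at 2% (1.29 ± 0.045), and Ftl1, an iron store, rose as well (1.23 ± 0.035). Flvcr1, a heme exporter, fell (-1.90 ± 0.051). Over 23 iron and heme genes 13 rose and 6 fell (median 0.36).

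Chaperone genes moved in both directions. In the endoplasmic reticulum 13 of 24 rose and 9 fell (11 and 11 under library-size scaling), with the disulfide isomerases P4hb and Pdia6 higher (1.60 and 1.40) and Herpud1, a gene of protein disposal, lower (-1.60 ± 0.037). Of 18 heat shock genes 9 rose and 8 fell, and their median of 0.06 turned to -0.12 under library-size scaling. Of 30 genes of lysosomes and mTORC1 restraint 20 rose and 6 fell (median 0.34). Rragd, a GTPase at the lysosome, had no count at 20% oxygen and 63 at 2%, at least 22.7-fold higher. Flcn, which acts on Rragd, fell (-1.14 ± 0.040).

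Most granule genes of the neutrophil line rose. In bulk RNA fewer cells of a type and less RNA per cell cannot be told apart, nor can more of either. Of 10 primary granule genes 9 rose and 1 fell (median 0.79; 1.30 in control cells), and their summed level was 3990.5 to 4436 CPM of the library total at 20% and 7554 to 8067 CPM at 2%. Elane, which encodes neutrophil elastase, read 748, 809, 891 and 856 CPM at 20% oxygen and 3746, 3496, 3636 and 3663 CPM at 2% (2.14 ± 0.048), far apart. Mpo, which encodes myeloperoxidase, read 275, 316, 345 and 302 CPM at 20% oxygen and 458, 409, 469.8 and 439 CPM at 2%, a smaller rise (0.52 ± 0.072), and Ctsg fell (-0.31 ± 0.045). The list also counts Igsf6, although it encodes a surface protein. Igsf6 changed least among the listed genes that rose (8.39, 8.02, 9.04 and 8.17 CPM at 20% oxygen and 9.32, 11.0, 9.17 and 9.53 CPM at 2%, 0.21 ± 0.073). It was not called under library-size scaling (0.03) or without replicate 2 at 2% (0.15).

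Of 15 tested genes of secondary granules and mature neutrophils 12 rose and 2 fell (median 1.02, against 1.06 in control cells). The lowest change in the list was -0.99. Ngp and Ly6g rose most, 4.53 and 4.51, but from 0.592 ± 0.141 to 13.9 ± 0.798 CPM and 1.39 ± 0.182 to 31.6 ± 2.98 CPM. Ly6c2 rose at a high level (1056 ± 27.1 to 2137 ± 46.3 CPM, 1.02 ± 0.031), and Ltf and Camp, which define mature secondary granules, did not pass the count filter. Of 17 monocyte markers 8 rose and 6 fell, with F13a1 (2.73 ± 0.071) and Cd68 (1.99 ± 0.091) higher and Fcgr1 lower (5.33 ± 0.318 to 0.187 ± 0.0382 CPM, -4.79 ± 0.24), and the median of 0.02 turned to -0.15 under library-size scaling. MHC class II genes rose in 9 of 9 cases (7 of 9 under library-size scaling), with H2-Ob at 1.70 ± 0.075 and H2-DMa at 0.88 ± 0.045.

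Targets of the MLL fusion drifted down. Of 23 tested 14 fell, 2 rose and 7 were not called (median -0.23; 18 lower and 0 higher under library-size scaling). Hoxa9, which the fusion keeps on and leukemias need, read 391, 380.2, 375 and 388 CPM at 20% oxygen and 237, 236, 233 and 239.8 CPM at 2%. No library at 2% reached the lowest at 20%, a change of -0.70 ± 0.028. Hoxa5, Hoxa7 and Lmo2 fell by 1.12, 0.83 and 1.14, its cofactor Meis1 by 0.29, and Hoxa10 by 0.23. The 2 that rose were Zeb2 (0.25) and Eya1 (0.19), neither called under library-size scaling (0.07 and 0.01). The myeloid regulators Gfi1 and Gata2 fell (-0.85 and -0.87) and Id2 and Klf2 rose (3.68 and 2.58), while Cebpa and Spi1 fell slightly (-0.20 and -0.27). Of 14 tested stem and progenitor markers 9 rose and 4 fell (median 0.41; 7 and 5 under library-size scaling), with Cd34 and Cd44 higher (0.97 ± 0.051 and 1.18 ± 0.031), Prom1 lower (-2.33 ± 0.079) and Kit without a call (-0.08 ± 0.039, edgeR adjusted p = 0.0585; -0.11 and called without replicate 3 at 20%, -0.08 and called in a fit of the 8 MCT4-KO libraries alone, and -0.26 and called under library-size scaling).

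Against the response of control cells, that of MCT4-KO cells was alike in direction for most genes. Where the responses differed, that of MCT4-KO cells was more often smaller than larger. The control cells had 78.3% of genes called (38.7% rose and 39.6% fell). Of the genes called in both genotypes, 9195 moved the same way and 124 the opposite way. The log2 changes had a Pearson correlation of 0.91 over the 13774 genes, a description of genes that share the libraries and not of independent replicates. The test of the difference called 3155 genes (22.9%), 1595 with a more positive response in MCT4-KO cells (11.6%) and 1560 with a more negative one (11.3%). Counts of list members that differed are to be read against these shares. Of the 3155 genes, 386 had a fitted difference of at least 1.5-fold. A test against a minimum fold of 1.5 called only 0 positive and 3 negative differences. Among genes that rose in MCT4-KO cells and differed, 747 rose less than in control cells (14.4% of all that rose) and 504 more. Among those that fell 849 fell less (15.9% of all that fell) and 562 more. One control library at 2% oxygen, replicate 4, lay apart from the other 3, and without it the test called 1662 and 1677 genes.

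Most ribosome biogenesis genes differed. Of 52 ribosome biogenesis genes 44 had a more positive difference and 0 a negative one (0 at an unadjusted p under 0.05 and 0 by DESeq2; 45 and 0 under library-size scaling). In control cells 46 fell, with a median of -0.84 in place of -0.44. Utp4, a factor of the small subunit, read 118, 110.0, 109 and 107 CPM at 20% oxygen and 72.2, 69.3, 72.0 and 69.7 CPM at 2% in MCT4-KO cells. It fell by 0.65 there and by 1.31 in control cells, a difference of 0.67 ± 0.076 (edgeR adjusted p = 9.91e-06). Heatr1 and Polr1b differed by 0.59 ± 0.083 and 0.59 ± 0.092. In the other direction 28 of 79 ribosomal protein genes differed and all 28 had a more negative response in MCT4-KO cells (27 under library-size scaling), by small amounts such as -0.24 ± 0.047 for Rps4x.

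Among nucleotide, tRNA synthetase and Atf4 genes positive differences outnumbered negative ones too. Over all tested genes 11.6% had a positive difference and 11.3% a negative one. Of 25 nucleotide genes 14 had a positive difference and 2 a negative one. Gart, which did not pass the test in MCT4-KO cells, fell by 0.72 in control cells, a difference of 0.70 ± 0.053 (edgeR adjusted p = 1.94e-07). Of 20 tRNA synthetases 13 were positive and 1 negative, with Wars at 0.54 ± 0.072, and of 35 Atf4 targets 14 and 3. Slc7a11 and Trib3 differed by 0.57 ± 0.11 and 0.40 ± 0.12, and Nupr1 by -0.69 ± 0.083 in the other direction. Myc fell by 0.58 in control cells, a difference of 0.42 ± 0.064 (edgeR adjusted p = 1.12e-04). Of 76 mitochondrial ribosomal proteins 14 were positive and 2 negative, together a share near the 22.9% over all genes.

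**Figure D5:**
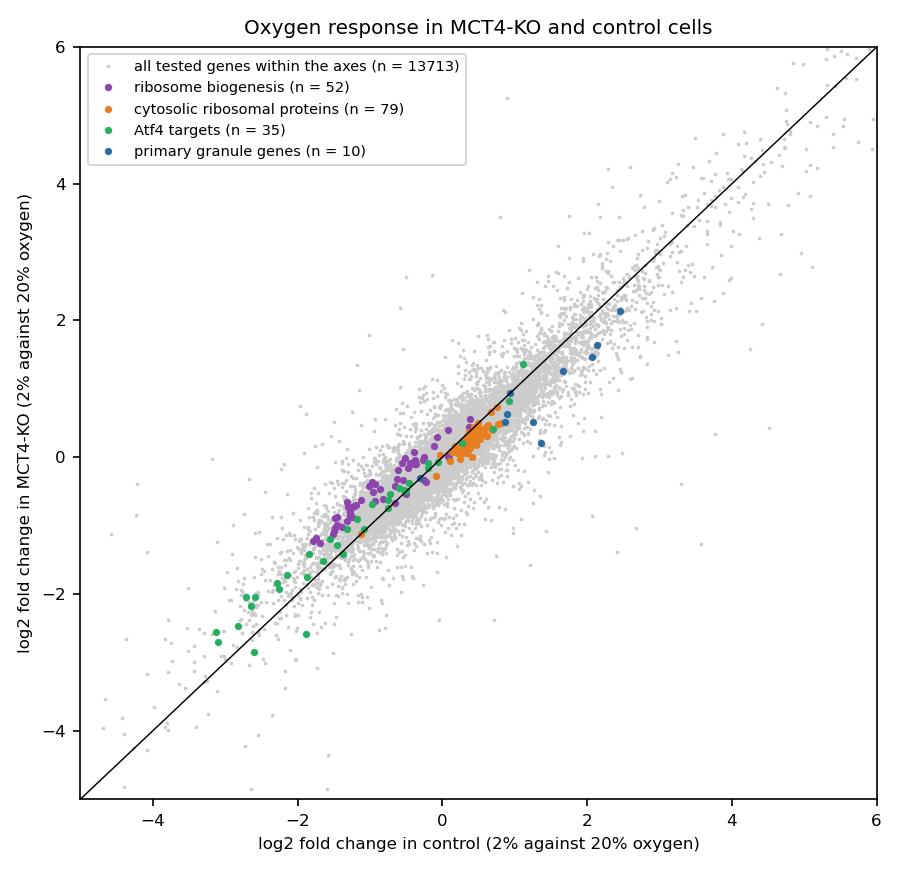
Log2 fold change at 2% against 20% oxygen in MCT4-KO cells (vertical axis) against that in control cells (horizontal axis), 1 point per gene, for 13713 genes with both values between -5 and 6, with 4 lists in color and the line of equal change. Most ribosome biogenesis genes and most Atf4 targets lie above the line, and most ribosomal protein and primary granule genes lie below it.

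Most primary granule genes had a more negative response than in control cells. Of 10 primary granule genes 8 had a negative difference and 0 a positive one (0 at an unadjusted p under 0.05 and 0 by DESeq2; 8 and 0 under library-size scaling). Elane rose by 2.45 in control cells (difference -0.32 ± 0.065) and Mpo by 1.25 (-0.73 ± 0.10). Igsf6, the surface protein that the list counts, rose by 1.36 there (-1.15 ± 0.11, edgeR adjusted p = 1.64e-06). Of 15 secondary granule genes 5 differed negatively and 1 positively, and of 17 monocyte markers 6 and 1. Of 14 stem cell markers 6 differed negatively and 0 positively (0 at an unadjusted p under 0.05 and 0 by DESeq2), Cd34 among the 6 (-0.27 ± 0.072). Of 17 myeloid transcription factors 2 differed negatively and 3 positively.

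Among the carriers Slc16a1 differed: it fell by 1.01 in control cells, and the difference was 0.55 ± 0.055 (edgeR adjusted p = 3.28e-06). Emb rose more in MCT4-KO cells (0.36 ± 0.046), and Bsg did not pass the test (-0.15 ± 0.063, edgeR adjusted p = 0.0864), although it did without replicate 1 of the controls at 20% or at 2%, or of MCT4-KO at 20% (-0.18 each). Of 22 lactate and proton genes 7 differed positively and 2 negatively. The glycolysis list held 3 and 3 of 25, a share near the 22.9% over all genes, and Hif1a differed by 0.21 ± 0.063 (edgeR adjusted p = 0.0202). Tfrc rose more than in control cells (0.85 ± 0.063), as did Hmox1 (0.55 ± 0.10) and mt-Rnr1 (0.67 ± 0.11). Vhl fell in MCT4-KO cells and rose by 0.11 in control cells (-0.50 ± 0.067).

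Where the mean log2 CPM over all libraries was 3 or more, the largest positive differences were in Stc1 (1.35 ± 0.47) and Basp1 (1.20 ± 0.41), which rest on 30 and 46 counts at 20% oxygen in MCT4-KO cells and were not called by limma-voom (1.18 and 0.97) or without some single libraries. Next came Thbs1, a matrix protein that fell less (-1.92 ± 0.093 against -3.02 ± 0.10, difference 1.10 ± 0.14), Neat1, which rose in MCT4-KO cells and fell in control cells (1.06 ± 0.14), Proser2 (0.92 ± 0.18), Cp (0.91 ± 0.31), Lilrb4a (0.90 ± 0.22) and Abi2 (0.86 ± 0.11). The largest negative differences were in Adgrd1, an adhesion receptor that rose less (2.33 ± 0.11 against 3.57 ± 0.12, difference -1.24 ± 0.18), BC035044, which fell more (-1.17 ± 0.12), Igsf6, Rorb (-1.08 ± 0.37), Sgsm1 (-0.99 ± 0.14), Mettl18 (-0.97 ± 0.10), the pseudogene Rps13-ps2 (-0.96 ± 0.34) and Pik3ip1, an inhibitor of PI3 kinase (-0.94 ± 0.072). The MCT4-KO libraries of Abi2 overlapped between oxygen levels, with a change of -0.23 ± 0.074 against -1.09 ± 0.079 in control cells. Rorb and Rps13-ps2 varied widely within groups, their MCT4-KO libraries overlapped too, and DESeq2 called neither (adjusted p = 0.0698 and 0.0848). Without replicate 4 of the controls at 2% their differences were -0.76 and -0.73, not called. Cp was not called by limma-voom (0.90) or without any 1 of 10 single libraries (0.82 to 0.91).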

How the data were processed

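RNA of MCT4-KO and control cells at 20% and 2% oxygen was sequenced after poly(A) selection, 4 libraries per group and 16 in all, per the labels' protocols. The deposited table holds estimated counts per gene, which the authors made with RSEM, and HISAT2 and the build mm10 are named per the submitters' processing notes, without versions. How strand was treated is not stated there. Exons of several other named genes, among them Slc6a9, Fam162a, Rpl12, Fdft1 and Ppat, also overlap another annotated gene. Their counts are uncertain for the same reason. Of the values 10.1% were not whole, and all were rounded. RSEM divides reads shared by similar genes, which can move counts between copies.

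Genes with enough counts (filterByExpr) were kept, 13774 of 53801, holding 99.9% of the counts. All 16 libraries were fitted with edgeR 4.0.16 (R 4.3.3, limma 3.58.1) by group means, TMM scaling and the quasi-likelihood F-test, with Benjamini-Hochberg adjustment over all tested genes and a call at an adjusted p under 0.05. The contrasts were low against high oxygen in MCT4-KO and in control cells, and their difference. The biological coefficient of variation was 4.61%. MCT4-KO libraries held 21565326 to 28871459 counts, so a count of 0 allows up to 0.104 to 0.139 CPM per library (3 counts). Intervals on counts are exact, at 95%, and cover counting error only. Alternatives were DESeq2 1.42.0, limma-voom, other scalings and filters, a minimum fold and leaving out each library, and their effect is given at the end. The fit was checked on simulated counts. Gene positions are from GENCODE vM21 (GRCm38, the same assembly as mm10).

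Named were 10 fixed genes (Slc16a3, Slc16a1, Bsg, Hif1a, Vegfa, Ldha, Txnip, Myc, Hoxa9 and Meis1). To these were added the 10 largest rises and falls without overlap and the 8 largest differences in each direction, all with a mean log2 CPM of 3 or more, and up to 4 called genes per list with the smallest adjusted p. All other members named were chosen after their values were seen. The comparison, the 52 gene lists and the tests were chosen with earlier results of these data known. The naming passed over Xist, genes of the Y chromosome and gene models without a full name, and some genes that the rule named are not reported here. Promoter windows matched 9920 of 13767 tested symbols.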

Additional observations from a re-analysis of the deposited data

Results flagged for a closer look

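In all 2 values stood apart within their group of 4 by their gap to the nearest library, among 78 groups looked at, and chance gives about 1 in 20. In replicate 1 of MCT4-KO at 20% oxygen the total was 21565326 estimated counts, below the other 3 libraries of its group. In the same library Emb read 376 CPM, above the 362 to 364 CPM of the others, a gap that is small against its rise to 592 to 629 CPM at 2%.

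The test of the difference between the responses of MCT4-KO and control cells called 3155 genes. Among the genes named above whose response in MCT4-KO cells fell and differed, it was more positive, on the log2 scale, for Thbs1 (1.10), Cp (0.91), Abi2 (0.86), Utp4 (0.67), Polr1b (0.59), Heatr1 (0.59), Slc7a11 (0.57), Slc16a1 (0.55), Wars (0.54), Myc (0.42) and Trib3 (0.40). Among those that rose, it was more positive for Stc1 (1.35), Basp1 (1.20), Neat1 (1.06), Proser2 (0.92), Lilrb4a (0.90), Tfrc (0.85), mt-Rnr1 (0.67), Hmox1 (0.55) and Emb (0.36). For genes without a call in MCT4-KO cells the differences were Gart (0.70) and Hif1a (0.21). It was more negative for Adgrd1 (-1.24), Igsf6 (-1.15), Sgsm1 (-0.99), Mettl18 (-0.97), Pik3ip1 (-0.94), Mpo (-0.73), Elane (-0.32), Cd34 (-0.27) and Rps4x (-0.24), all of which rose in MCT4-KO cells, and for BC035044 (-1.17), Rps13-ps2 (-0.96), Nupr1 (-0.69) and Vhl (-0.50), which fell, and for Rorb (-1.08), which had no call there. The calls for Stc1, Basp1, Cp, Rorb and Rps13-ps2 were lost in some alternatives, as given above.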

How the results depend on the processing

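Over 13774 genes the counts of rises and falls in MCT4-KO cells were 4724 to 5604 and 4864 to 5474 with DESeq2's size factors or Wald test, limma-voom, no count filter, a stricter one (1 CPM in 8 libraries) or a fit of the 8 libraries alone. Without replicate libraries in turn they were 5054 to 5105 and 5170 to 5244. A test against a minimum fold of 1.5 called 1916 and 1546, and for the difference between genotypes 0 and 3 (main test 1595 and 1560). Library-size scaling called 3797 and 6942 genes in MCT4-KO cells and 1940 and 1287 differences, and 30 ribosomal protein genes higher in place of 65. Under that scaling Hk3 (-0.088) and Cs (-0.027) changed sign. Leaving out libraries in turn gave 1332 to 1662 positive and 1294 to 1677 negative differences. Of 43 named differences 34 and of 322 named responses 302 kept direction and call under every setting but the minimum fold, which ended 33 and 72 calls, and those that did not are given with the genes above where the text names a value for them. The cause of these shifts was not tested.

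Same-numbered libraries of the 2 oxygen levels did not deviate together (r -0.020 to 0.026 over genes), and not every library correlated best with its own number. With the number as a replicate block 5136 rose and 5282 fell, and 1393 and 1388 differences were called. For promoters, windows of 150 bases before the start held the hypoxia word in 48.6% of all genes and 79.2% of the glycolysis list, and TGATGNAA in 1.48% of all and 16.7% of Atf4 targets. At this depth genes under about 0.1 CPM per library could not be followed.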

Other observations

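Enzymes that use oxygen to remove methyl groups did not move as 1 group in MCT4-KO cells. Of 27 histone, DNA and RNA demethylase genes 12 rose and 10 fell, and their median of 0.05 turned to -0.13 under library-size scaling. The histone demethylases Kdm3a, Kdm5b and Kdm4b, known to be induced by HIF, rose by 1.13 ± 0.060, 1.12 ± 0.066 and 0.94 ± 0.043, while Kdm4a fell (-0.53 ± 0.038) and Tet3, a DNA demethylase, fell from 129 ± 11.5 to 64.4 ± 3.46 CPM. The RNA demethylases Alkbh5 and Fto rose by 0.78 ± 0.035 and 0.67 ± 0.041.

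Signaling genes moved in both directions. Of 20 immediate early genes, which respond within minutes to growth signals, 11 fell and 6 rose (median -0.38). Ier2, Junb and Jund fell (-1.38, -0.88 and -0.98), whereas Ier3, Fosl1 and Maff rose (2.47, 2.77 and 1.56). Of 23 tested cytokine receptors and signaling inhibitors 15 rose and 5 fell (median 0.27; 11 and 9 under library-size scaling). Of the receptor genes for interleukin 3, Il3ra rose by 0.40 ± 0.034 and Csf2rb by 0.30 ± 0.039. Cish, which dampens such receptors, rose (0.92 ± 0.047) and Socs2, of the same family, fell (-1.24 ± 0.043). Csf3r, the receptor for granulocyte growth factor, fell (-0.99 ± 0.065), and so did Flt3 (-0.64 ± 0.051). Of 22 interferon-stimulated genes 12 fell and 5 rose (median -0.24), with Ifih1, a sensor of viral RNA, lower (-0.92 ± 0.049) and Stat2 higher (0.71 ± 0.055). Selplg, which encodes the ligand of selectins by which leukocytes roll, went from 137 ± 2.40 to 618 ± 6.41 CPM (2.17 ± 0.039), and the chemokine receptor gene Cxcr4, a known HIF target, from 127 ± 6.92 to 271 ± 7.97 CPM (1.09 ± 0.058).

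Of 11 tested replication-dependent histone genes, from a list of 24, 7 rose and 0 fell by edgeR (0 at an unadjusted p under 0.05 and 0 by DESeq2). Under library-size scaling 5 rose and 1 fell. Most of these RNAs lack a poly(A) tail, so the libraries measure them poorly.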
